A study of Mus musculus with 2 samples.

Results

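The Nr4a genes encode a small family of orphan nuclear receptors, Nr4a1 (also called Nur77), Nr4a2 (Nurr1) and Nr4a3 (Nor1). They were examined here in mouse bone marrow-derived macrophages (BMDMs) exposed to the culture supernatant of apoptotic cells. All 3 genes named in the array's annotation were taken, of 18194 genes named by a probe set of their own. They are read by 10 of the 45101 probe sets. The genes were chosen by their signals on these same arrays, so the differences between the conditions are given as a description and no test was made of them.

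The series holds 2 arrays, 1 of BMDMs kept for 1 hr with the supernatant of apoptotic W3 cells and 1 of BMDMs kept for 1 hr with medium. Both came from bone marrow of female C57BL/6J mice aged 8 weeks, cultured for more than 7 days in DMEM with 10% FCS and M-CSF, the growth factor that turns marrow cells into macrophages. W3 is a mouse T cell line (WR19L) that expresses Fas, the death receptor bound by FasL. The W3 cells were given FasL for 30 min, washed, and left for 60 min in RPMI with 1% FCS before the supernatant was collected. The labels describe the control as RPMI with 10% FCS, and a supernatant of living W3 cells was tested on neither array. The effect of apoptosis, that of W3-conditioned medium and that of the serum content therefore cannot be told apart on these arrays.

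Nuclear receptors are transcription factors, and most of them are switched on by a lipid-soluble ligand. The Nr4a receptors differ in that no ligand is needed, and their activity is set mainly by how much of the protein is made. Their genes are immediate early genes, which are transcribed within minutes of a signal at the cell surface and without new protein synthesis. In macrophages they respond to cyclic AMP and to inflammatory stimuli, and Nr4a proteins are known to restrain inflammatory genes. One route to these genes is the cAMP response element (CRE), and the shorter motif within it, which are bound by CREB, the transcription factor phosphorylated by protein kinase A.

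The promoters of the 3 genes are shown because the 3 mRNAs moved together and because the sequences share a feature that played no part in the choice of the genes. Each window covers 250 bases before and 50 bases from the transcript start in the RefSeq annotation of assembly GRCm38.p6, and is written in the direction of transcription. Capitals mark the short CRE motif, TGACG, or its complement CGTCA. Nr4a1 spans 101253902 to 101274795 on chromosome 15, Nr4a2 57106830 to 57124003 on chromosome 2 and Nr4a3 48045078 to 48086447 on chromosome 4. The Nr4a1 window is chr15:101266596-101266895 on the + strand, that of Nr4a2 is chr2:57123954-57124253 on the - strand, and that of Nr4a3 is chr4:48045055-48045354 on the + strand. A single start per gene was searched. For Nr4a1 and Nr4a3 it lies inside the span of the gene, so sequence before any start further upstream was not searched.
Nr4a1: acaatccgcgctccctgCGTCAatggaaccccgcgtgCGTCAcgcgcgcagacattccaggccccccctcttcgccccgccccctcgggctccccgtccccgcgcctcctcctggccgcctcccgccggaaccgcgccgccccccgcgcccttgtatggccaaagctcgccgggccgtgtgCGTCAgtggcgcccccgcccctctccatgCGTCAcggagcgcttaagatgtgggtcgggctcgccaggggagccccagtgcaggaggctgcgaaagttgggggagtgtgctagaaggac
Nr4a2: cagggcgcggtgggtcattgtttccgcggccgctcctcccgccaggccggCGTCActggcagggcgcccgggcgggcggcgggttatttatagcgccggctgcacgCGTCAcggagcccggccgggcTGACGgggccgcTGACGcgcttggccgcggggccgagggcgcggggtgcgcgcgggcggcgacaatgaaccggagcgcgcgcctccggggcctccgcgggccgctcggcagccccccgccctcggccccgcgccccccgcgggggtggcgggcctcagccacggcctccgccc
Nr4a3: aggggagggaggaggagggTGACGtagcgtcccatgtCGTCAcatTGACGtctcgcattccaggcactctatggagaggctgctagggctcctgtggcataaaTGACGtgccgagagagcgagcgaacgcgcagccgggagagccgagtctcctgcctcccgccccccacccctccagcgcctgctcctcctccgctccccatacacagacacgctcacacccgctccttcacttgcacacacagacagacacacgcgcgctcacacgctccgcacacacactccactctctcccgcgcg

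Each of the 3 promoters held 4 short CRE motifs. In Nr4a1 all 4 ran against the direction of transcription, and with the start counted as position 1 they began at positions -233, -213, -69 and -40. In Nr4a2 a pair ran against it, at -200 and -144, and a pair with it, at -123 and -111. In Nr4a3 they began at -231, -213, -205 and -147, and the one at -213 ran against transcription. Nr4a1 thus had 2 motifs nearer to the start than any of Nr4a2 or Nr4a3. The full CRE, TGACGTCA, which contains 2 copies of the short motif, was found in none of the 3 windows.

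Over the 32851 promoters of the same length in the table, 20.8% held at least 1 short CRE motif, 1.03% held at least 3 and 0.231% (76 promoters) held at least 4, searching both strands. The Nr4a promoters are rich in G and C, with 72.3% in Nr4a1, 81.7% in Nr4a2 and 64.7% in Nr4a3, against a median of 52.7% over all promoters. Among the 9690 promoters with at least 60% G and C, 0.557% held 4 or more. Of 40 other nuclear receptor genes with a promoter in the table, 12 (30.0%) held the motif and 1 (2.5%), Nr2e1, held 3, the highest number among them. Counted per gene in the same way, 23.0% of all 27025 genes held the motif and 1.17% held 3 or more. Among the genes outside the family with the nearest ratios, given below, 2 had a promoter in the table. Of these, Egr2 held 2 short CRE motifs and Il1b held 0. A match to these letters is a description of the sequence and shows no binding.

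Other motifs were shared less evenly. The GC box GGGCGG, a site of Sp1 factors, occurred 3 times in Nr4a1, 5 times in Nr4a2 and once in Nr4a3, and in 35.7% of all promoters. A match to the Egr site GCGGGGGCG stood at positions -60 to -52 of Nr4a1, overlapping a GC box, and 2.91% of all promoters held one. TATAAA occurred once, in Nr4a2, against the direction of transcription, and in 13.6% of all promoters. The Nr4a receptors' own element, the NBRE (AAAGGTCA), its core AGGTCA and the CArG box bound by serum response factor were found in none of the 3 windows. They were held by 1.51%, 16.3% and 1.63% of all promoters, and the core is part of the longer NBRE.

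**Figure D1:**
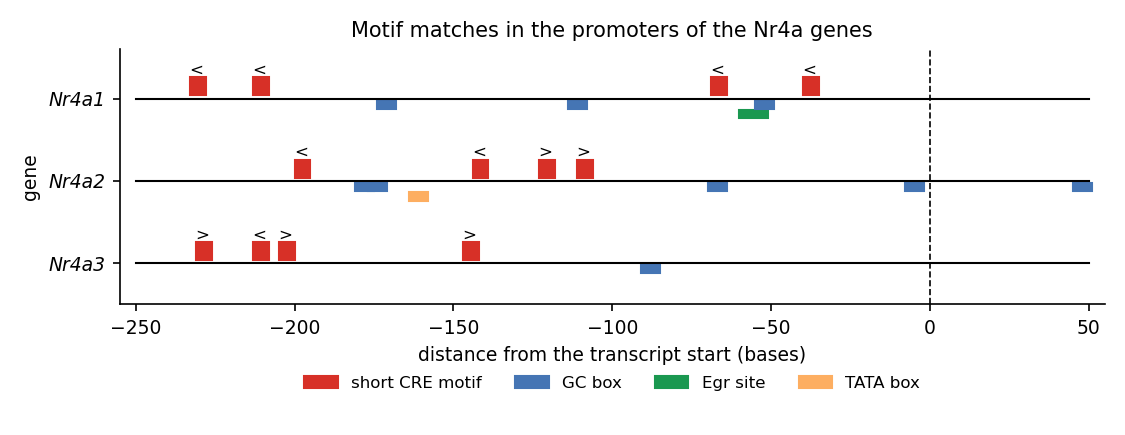
Matches to 4 motifs (coloured boxes) in the promoters of the 3 Nr4a genes, by distance from the transcript start in bases, with arrowheads giving the direction of each short CRE motif relative to transcription. Each gene has 4 short CRE motifs, and the nearest to the start lie at -40 in Nr4a1, -111 in Nr4a2 and -147 in Nr4a3.

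With the apoptotic cell supernatant each of the 3 genes had a strong signal on its brightest probe set. The deposited value is a MAS5 signal, an intensity on a linear scale computed for each probe set, a group of short probes to 1 transcript. Signals under 38.4 are treated as dim, a floor equal to the 95th percentile of 80 probe sets of olfactory and vomeronasal receptors, taken on the array where it was higher. These receptors are assumed to be silent in macrophages. A signal under the floor was set to it before a ratio was formed, so such a ratio can only understate the difference and carries the words "at least". Each condition was measured once, so no difference has a replicate error, a p-value or an SD, and precision is limited by how few arrays there are. In a bulk culture a change in the number of expressing cells and a change in the RNA of each cell cannot be told apart.

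Nr4a1, the founding member of the family and a classical growth factor response gene, is read by a single probe set, 1416505_at. Its signal was 7584 with the apoptotic cell supernatant, against 212 with medium, a ratio of 35.8. Both signals lay above the floor, so the ratio is a measured value and not a bound. The medium signal also exceeded 62.4, the highest value among the receptor probe sets.

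Nr4a2, best known for its role in the development of dopamine neurons, has 6 probe sets. The brightest, 1455034_at, read 6924 with the supernatant and 156 with medium, which is 44.3-fold higher. 1447863_s_at read 3523 with the supernatant and 102 with medium, 34.4-fold higher. 1450750_a_at read 2745 and 1450749_a_at 1147 with the supernatant, against 129.5 and 62.7 with medium, 21.2-fold and 18.3-fold higher. These 4 are the Nr4a2 probe sets at least 2-fold higher, so their common direction follows from that choice. Their log2 ratios ranged from 4.19 to 5.47, with an SD of 0.60. That SD leaves out 1433423_at, which was also measured and had a log2 ratio of -0.001. For comparison, the 2 brightest probe sets of a gene gave an SD of 0.25 per probe set over 5196 genes. This is the SD of their difference divided by the square root of 2. Those genes were taken without a cut on the ratio, and the figure covers disagreement within these arrays only.

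The remaining pair of Nr4a2 probe sets did not share this pattern. 1433423_at read 74.8 with the supernatant and 74.9 with medium, a ratio of 0.999. 1433422_at was dim throughout and read 17.7 with the supernatant and 19.0 with medium. Both were designed from the same cDNA clone, and neither carries a suffix. On this platform the suffix _a marks probes shared by several transcripts of a gene, and _s marks probes shared by several transcripts that may belong to different genes. The 3 suffixed probe sets of Nr4a2 were all among the 4 that were higher, and the discordant pair carries the plain _at ending. So does 1455034_at, the brightest and most changed, so the suffix did not separate the 2 patterns. The position of the probes along the transcript was not analysed here.

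Nr4a3 has 3 probe sets, none with a suffix. Only 1438796_at rose above the floor, with 613 with the supernatant and 20.3 with medium. The ratio of the deposited signals was 30.2, and against the floor the signal was at least 16.0-fold higher. The other 2 were designed from 1 cDNA clone and were dim on both arrays. 1421080_at read 28.5 with the supernatant and 10.1 with medium, and 1421079_at read 17.2 with the supernatant and 2.69 with medium. Both had the higher deposited signal with the supernatant, but no ratio is given for signals that are all under the floor.

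**Figure D2:**
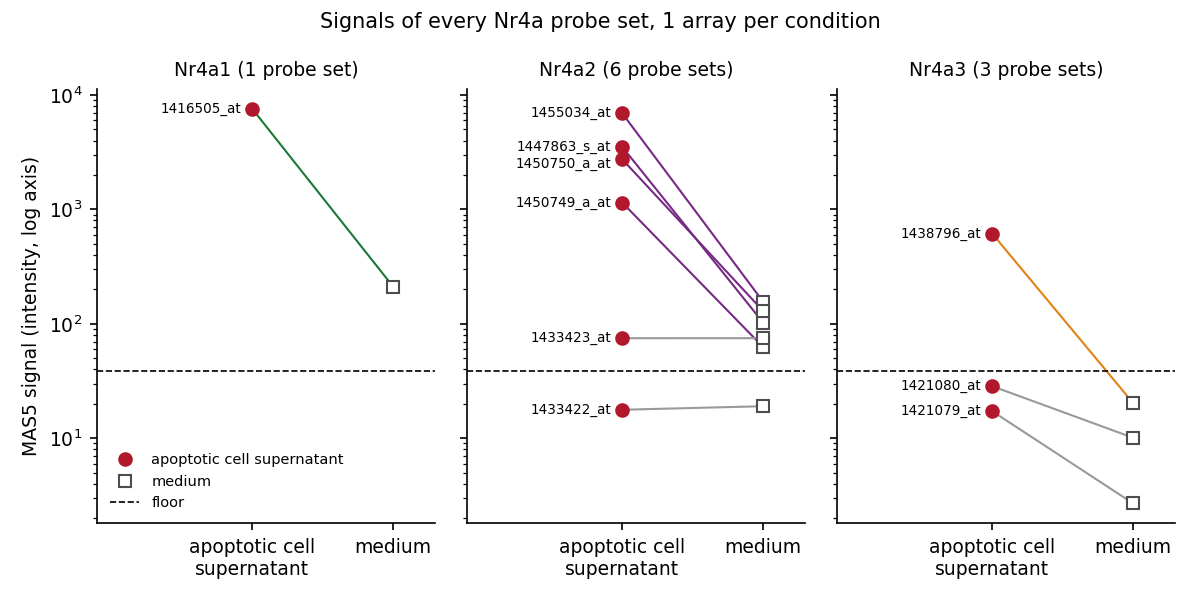
MAS5 signal (intensity, log axis) of each of the 10 Nr4a probe sets with apoptotic cell supernatant (filled circles) and with medium (open squares) on 1 array each, where the dashed line is the floor of 38.4. The 6 coloured lines are probe sets at least 2-fold higher with the supernatant, with signals from 613 to 7584, and the grey lines are the flat 1433423_at and 3 probe sets under the floor on both arrays.

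In all, 7 of the 10 Nr4a probe sets cleared the floor on 1 array or both, and with the supernatant 6 of the 7 were at least 2-fold higher and 0 lower. Of all 26487 probe sets above the floor on at least 1 array, 1.04% were at least 2-fold higher. The same 6 were over 10-fold higher, as were 0.0491% of all probe sets, 13 in number, so that 46.2% of these 13 read an Nr4a gene. The genes were chosen by this contrast, and nothing is read from these shares. The Nr4a signals nearest to the floor were 62.7 on the bright side (1450749_a_at with medium) and 28.5 on the dim side (1421080_at with the supernatant).

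Probe sets of 1 gene on both sides of the 2-fold threshold were not restricted to Nr4a2. Of 29 genes at least 4-fold higher by their brightest probe set, 12 had a further measured probe set. In 3 of these, Fosl2, Nr4a2 and Vegfa, such a probe set was bright on both arrays and less than 2-fold higher. That probe set was 1.81-fold higher in Fosl2 and 1.91-fold higher in Vegfa, just under the threshold, while that of Nr4a2 was flat. In 4 more, Grasp, Kdm6b, Ptgs2 and Tal2, a further probe set gave only a lower bound under 2-fold, which does not show that it was less than 2-fold higher. These genes were named after their values were seen. The lowest ratio among these further probe sets was that of Nr4a2, 0.999. Averaged over all its probe sets on the log2 scale Nr4a2 was 9.05-fold higher, and without the pair from the shared clone, a comparison chosen after the data were seen, 27.7-fold. The same mean leaves Nr4a3 with at least 1.745-fold, since it includes the dim pair.

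The 2 arrays were also compared over all probe sets, those of the Nr4a genes included. Their trimmed mean signals were equal at 500.0. Scaling each array to a common value gives such an equality, so it does not show a match. Their median signals were 49.3 with the supernatant and 53.0 with medium. The log2 ratio had its median at -0.03, with an SD of 0.36, over the 22998 probe sets that cleared the floor on each array. Of 9 macrophage markers with a probe set, all cleared the floor, among them Csf1r, the M-CSF receptor, with 28572 with the supernatant and 30999 with medium. Mertk, a receptor for apoptotic cells, was the 1 marker at least 2-fold higher (1050.0 with the supernatant and 471 with medium). Of all genes above the floor on at least 1 array, 0.96% were at least 2-fold higher. T cells can also express Nr4a genes. Of 12 T cell markers with a probe set, 9 were dim on both arrays, including Cd3d (1.51 with the supernatant and 2.13 with medium), Cd3e (9.92 and 14.3) and Cd3g (1.57 and 2.73). The 3 that were measured were Zap70 (313 with the supernatant and 208 with medium), Cd28 (283 and 393) and Cd5 (42.8 and 65.9). Their log2 ratios were 0.59, -0.48 and -0.62. The summed signal of the T cell list was 714 with the supernatant and 798 with medium, most of it from Zap70 and Cd28. Of 15 markers of other marrow cells 6 were measured, and the 4 bright on both arrays had log2 ratios from -0.31 to 0.24. The other 2, both expressed in granulocytes, had lower bounds only. S100a9 read 73.0 with the supernatant and 5.85 with medium, at least 1.90-fold higher, and Elane read 51.8 with the supernatant and 9.89 with medium, at least 1.35-fold higher. Among granulocyte markers of the same list, S100a8 was brighter and read 462 with the supernatant and 391 with medium, 1.18-fold higher. Mpo was dim on both arrays, with 16.0 with the supernatant and 9.04 with medium. The part of these cells in the Nr4a signals was not tested.

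Among all genes the Nr4a genes stood at the upper end of the distribution. Of 10696 genes above the floor on both arrays, Nr4a2 had the highest ratio and Nr4a1 the third highest. With 2 arrays the ratio is the whole pattern of a gene, and the genes nearest to both by this measure were the same. Next to Nr4a1 and Nr4a2 came Egr3, a zinc finger factor that is also an immediate early gene, which read 6596 with the supernatant and 179.5 with medium, 36.7-fold higher. It differed from Nr4a1 by 0.04 and from Nr4a2 by 0.27 on the log2 scale, while Nr4a1 and Nr4a2 differed from each other by 0.31. Il1b, which encodes interleukin 1 beta, Thbs1, a matrix glycoprotein that activates TGF-beta, and Egr2 followed, with ratios of 22.7, 20.9 and 12.2. The bound for Nr4a3 was exceeded by the ratios of 5 genes above the floor on both arrays, namely Nr4a2, Egr3, Nr4a1, Il1b and Thbs1. Outside these genes, and named after its value was seen, Mycn, a growth-promoting transcription factor whose medium signal was under the floor, had a bound of 6.39 on the log2 scale, above all 3 Nr4a genes. The place of Nr4a3 is unknown, since its medium signal was under the floor.

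**Figure D3:**
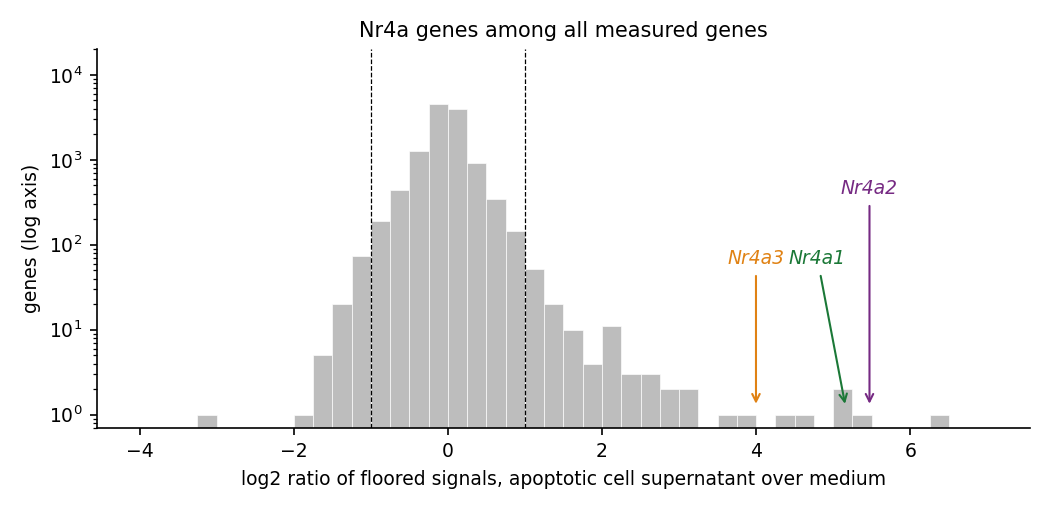
Number of genes (log axis) by the log2 ratio of floored signals, apoptotic cell supernatant over medium, for the 11977 genes above the floor on at least 1 array, where dashed lines mark 2-fold. Nr4a1 (5.16), Nr4a2 (5.47) and Nr4a3 (at least 4.0) lie far to the right of the bulk of the genes, and the rightmost gene is Mycn (at least 6.39).

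The other nuclear receptors served as the nearest comparison by protein family. Of 46 such genes 41 had a probe set of their own, and 26 cleared the floor on 1 array or both. At the gene level 0.96% of all 11977 measured genes passed 2-fold upward and 0.843% downward. Of the 26 receptors, 18 were bright on both arrays, and their log2 ratios ran from -0.43 to 0.27, so none was 2-fold higher or lower. The other 8 gave lower bounds only, none of which reached 2-fold, and a larger difference is possible for them. Among these, and named after their values were seen, Rara read 42.6 with the supernatant and 9.73 with medium, and Thrb read 43.5 and 12.7. Over all 26 the floored log2 ratios ranged from -0.43 to 0.43 with a median of 0.03, against -0.02 over all measured genes. Counting every probe set, 0 of 50 measured probe sets passed 2-fold, with floored log2 ratios from -0.89 to 0.81. Over all measured probe sets 1.04% were at least 2-fold higher, so a count of 0 of 50 upward is near that share. The glucocorticoid receptor gene Nr3c1, a strong brake on inflammation in macrophages, read 1957 with the supernatant and 1909.5 with medium. Nr1d2, a repressor of the circadian clock, read 1176 with the supernatant and 1275 with medium. Nr2c2, the orphan receptor TR4, read 813 with the supernatant and 902 with medium. These bright receptors had nearly equal signals in both conditions.

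Several further receptors are named after their values were seen. Pparg, a receptor for fatty acids that drives lipid uptake in macrophages, read 777 with the supernatant and 686 with medium, and Nr1h3, the oxysterol receptor LXR alpha, read 122 and 143. Rora, an orphan receptor with the highest ratio among those above the floor on both arrays, read 203 with the supernatant and 169 with medium, 1.2-fold higher. At the other end Nr0b2 read 59.6 with the supernatant and 80.2 with medium. Among genes bright on both arrays, Nr4a1 and Nr4a2 had log2 ratios of 5.16 and 5.47, against 0.27 for Rora.

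**Figure D4:**
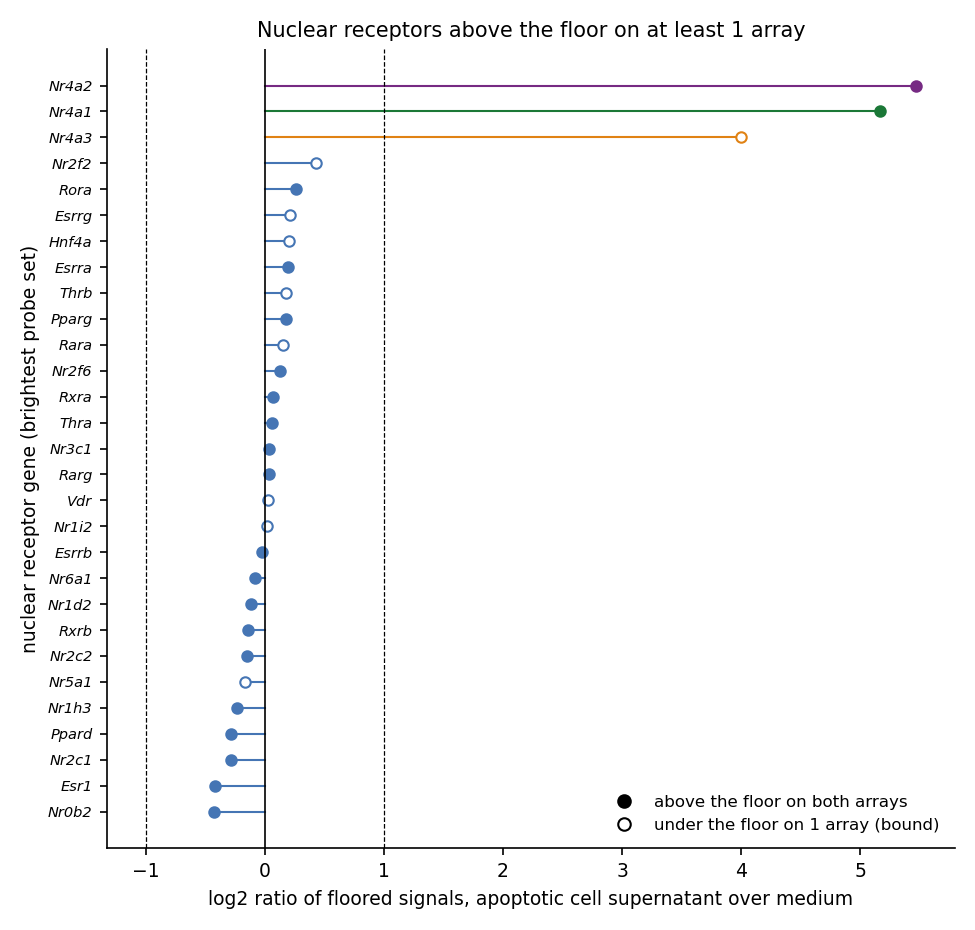
Log2 ratio of floored signals, apoptotic cell supernatant over medium, of the 29 nuclear receptor genes above the floor on at least 1 array, each by its brightest probe set, with open circles where 1 array was under the floor and dashed lines at 2-fold. The 3 Nr4a genes lie between 4.0 and 5.47 and the other 26 between -0.43 and 0.43, where open circles are lower bounds on the size of a difference.

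Nr4a proteins bind DNA alone, as pairs, or, for Nr4a1 and Nr4a2, with the retinoid X receptors, and they act with corepressors such as CoREST (Rcor1) and with histone-modifying enzymes. Of 22 genes listed as partners and coregulators 18 were measured. None passed 2-fold in either direction, and the median log2 ratio was 0.00. Of all measured genes 0.96% passed 2-fold upward and 0.843% downward, so a count of 0 among 18 is near the general share. The brightest were Trim28, a corepressor, with 5127 with the supernatant and 5381 with medium, and the histone deacetylases Hdac2 with 2992 and 3014 and Hdac1 with 2879.7 and 2826. Rxra, named after its values were seen like the remaining genes of this paragraph, read 205 with the supernatant and 195 with medium, and Rxrb read 438 and 481. Rcor1 read 1262 with the supernatant and 1245 with medium, and Kdm1a, the demethylase that works with it, 1650.2 and 1585. The 18 measured mRNAs of this list had like signals in both conditions, as most measured genes did.

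Upstream of the Nr4a genes lie protein kinase A, CREB and its CRTC coactivators, the salt-inducible kinases that hold these in check, and MEF2 factors with the class IIa histone deacetylases. Of 26 such genes 25 were measured, and the median log2 ratio was 0.01. Against 0.96% of all measured genes, 2 of the 25 were at least 2-fold higher, and none was lower. The higher ones were Crem and Sik1, which are themselves known targets of CREB. Crem encodes CREB-related factors, among them the early repressor ICER, and read 1541 with the supernatant and 451 with medium, 3.42-fold higher. Crem has 3 probe sets above the floor, of which 2 passed 2-fold, while the remaining one read 64.0 with the supernatant and 72.1 with medium. Sik1, a kinase that inhibits the CRTC coactivators, read 200.4 with the supernatant and 96.8 with medium, 2.07-fold higher, and at least 1.71-fold on its other probe set. With probe sets averaged on the log2 scale 0 of the list was at least 2-fold higher. The brightest members were Mef2a with 9455 with the supernatant and 8728 with medium, and the regulatory subunits of protein kinase A, Prkar1a with 6044 and 6449 and Prkar2a with 4974 and 5273. Creb1, named after its values were seen, read 1818 with the supernatant and 1999 with medium.

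Genes that Nr4a proteins are known to repress in macrophages or microglia moved in both directions. Of 10 such genes 7 were measured, with a median log2 ratio of 0.84. Of the 7, 3 passed 2-fold upward and 1 downward, against 0.96% and 0.843% of all measured genes. The higher ones were Il1b (1845 with the supernatant and 81.3 with medium), Ptgs2, the inducible cyclooxygenase (1486 and 163), and Ccl2, a monocyte chemokine (10674 and 3727). The ratios were 22.7, 9.10 and 2.86. Tnf was 2.01-fold lower, with 251 with the supernatant and 503 with medium. Cxcl2, a neutrophil chemokine, was 1.79-fold higher, short of the threshold. Mmp9, a matrix protease, read 8.42 with the supernatant and 65.2 with medium, at least 1.70-fold lower, so the count of lower genes may be an underestimate. Il6, Il12b and Nos2 were under the floor on both arrays.

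Genes reported elsewhere as targets of Nr4a receptors, most of them in neurons, endocrine glands, muscle or liver, were mostly silent or level here at 1 hr. Of 22 with a probe set 12 were under the floor on both arrays, among them Th, the enzyme of dopamine synthesis, and Pdk4, a brake on glucose oxidation. The 10 measured had a median log2 ratio of -0.05. Of them 1 was at least 2-fold higher, against 0.96% of all measured genes, and none lower. That 1 was Star, a cholesterol carrier of steroid-producing cells, which read 78.2 with the supernatant and 2.79 with medium, at least 2.04-fold higher, while its other 2 probe sets were dim on both arrays. With the floor 2 times as high it no longer passed. The scavenger receptor Cd36 read 21565 with the supernatant and 19706 with medium, and the cyclins Ccnd1 and Ccnd2 read 13973 and 2925 with the supernatant, against 14935 and 3005 with medium.

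**Figure D5:**
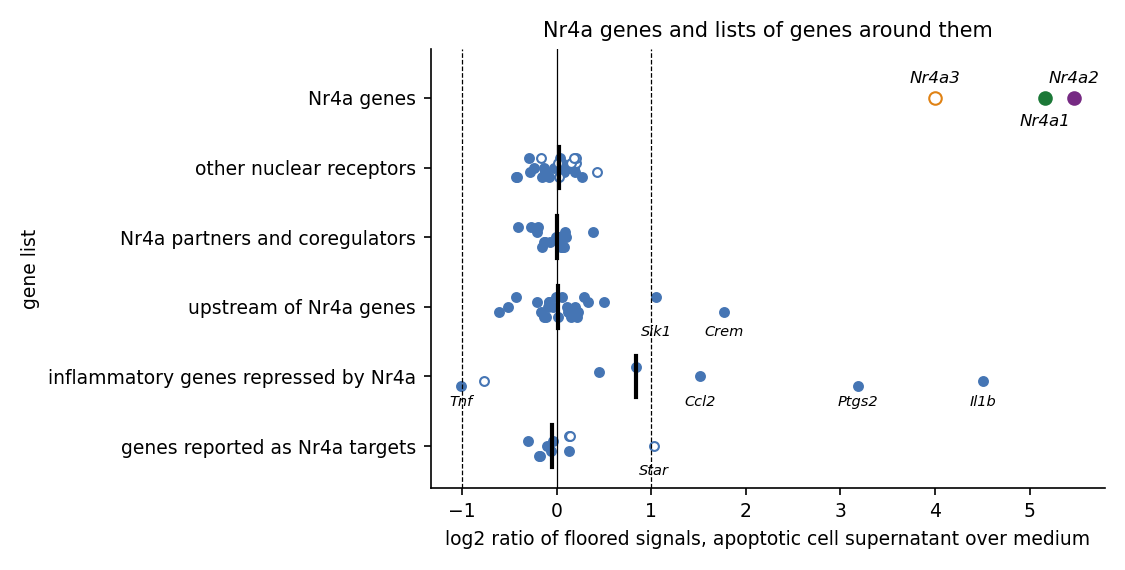
Log2 ratio of floored signals, apoptotic cell supernatant over medium, for the 3 Nr4a genes and for each measured gene (points, open where 1 array was under the floor) of 5 lists, where bars give list medians and dashed lines mark 2-fold. The medians run from -0.05 to 0.84, and Il1b (4.50) is the listed gene closest to the Nr4a genes.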

How the data were processed

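RNA from BMDMs was labelled with biotin and hybridized to Affymetrix mouse 3' expression arrays, 1 per condition. What the authors deposited is the MAS5 signal of every probe set, a linear intensity. Genome build, detection calls and further filters are not given in the sources used here. Probe sets were named from the annotation of the platform, and a probe set given to several genes (932) or not listed (9211) was used for no gene. No probe set given to several genes names an Nr4a gene. By Entrez identifier 34754 of 34958 single-gene probe sets matched the RefSeq table of GRCm38.p6, and 0 symbols changed.

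A gene was read by its brightest probe set (mean over both arrays), signals were floored, and the log2 ratio of supernatant over medium was formed. At least 2-fold was the threshold for lists. No test was run, since each condition has 1 array. Motifs were searched on both strands of RefSeq promoters. Python 3.11.15, numpy 2.4.6, pandas 2.3.3, statsmodels 0.14.6 and matplotlib 3.10.9 were used. The recovery of known ratios was tested on simulated data, only for genes with medium signals well above the floor. Ratios with 1 signal under the floor, such as that of Nr4a3, were not covered by it.

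The genes, lists and rules were chosen with earlier results of these data known. Named are the Nr4a genes, per list up to 4 members past 2-fold and the 3 brightest, and the 5 genes with the nearest ratio, with others marked as named later. List genes without a probe set of their own were not analysed here. Alternatives were other scalings (median-centring, quantile, loess with a span of 30%), other floors, a pseudocount, and either all probe sets of a gene averaged or those with a suffix left out.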

Additional observations from a re-analysis of the deposited data

How the results depend on the processing

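No paired analysis was possible because there were no replicates to pair. The log2 ratios of the Nr4a genes were above 0 in all 28 recomputations. Of these, 20 stayed within 0.25 of the reported value, the SD per probe set given above. Nr4a1 stayed within it in all 9. Part of this was fixed in advance, since the only probe set of Nr4a1 has no suffix and cleared every floor tried. Other floors, averaging and leaving out suffixes could therefore not change Nr4a1. Nr4a2 could likewise not change with other floors or without suffixed probe sets, nor Nr4a3 without suffixed probe sets. The number that stayed thus overstates how far the ratios were put to a test. Nr4a2 (5.47) was 5.16 with the floor added as a pseudocount, 3.18 averaged over all probe sets on the log2 scale, and 4.79 averaged without the pair of 1 clone, which was added after the data were seen. Nr4a3 (4.0) was 4.92 both without a floor and with a floor of 10.0, the receptor median, 3.0 with the floor 2 times as high, 3.47 with the pseudocount and 0.80 averaged over all its probe sets. The number of Nr4a probe sets past 2-fold (6) ran from 6 to 8 and the number measured (7) from 6 to 10 over the other settings.

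Counts of other nuclear receptors rested on the floor. The 0 past 2-fold upward became 5 with no floor and 2 once the receptor median was the floor, and the 0 downward became 4 and 1. The 2 upstream genes became 1 with the pseudocount and 0 when probe sets were averaged. The 1 Nr4a target past 2-fold upward became 4 with no floor, 0 with the doubled floor and 0 when probe sets were averaged. The other 57 of 66 recomputed counts stayed within 1.5 times. The cause of these shifts was not tested. Signals under the floor limit Nr4a3 to a lower bound, and with 1 array per condition no spread between arrays is known.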
